A study of Homo sapiens with 16 samples.

Results

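The regions described here are the binding peaks on the long arm of human chromosome 5 (5q) in chromatin immunoprecipitation sequencing (ChIP-seq) of the ETS transcription factors GABPα and ERG. They were chosen by position alone, as every peak on chromosome 5 with a start above 50 Mb in genome build hg18. The 10 ChIP samples held 7331 MACS peaks on 5q out of 155269 MACS peaks in all, and 1421 high confidence peaks on 5q out of 39138. The short arm (5p, start below 46 Mb), with 1981 MACS peaks and 328 high confidence peaks, served for comparison.

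The samples came from VCaP, a prostate cancer (PC) cell line, and Jurkat, a T-cell leukaemia line. VCaP cells were sampled for each factor at t0, after vehicle (ethanol) and after R1881, a synthetic androgen, at 1 nM, and the last pair of conditions followed 48 h in medium with charcoal-stripped serum. Each VCaP condition was represented by 1 sample per factor, and Jurkat cells, with no treatment in the labels, by 2 replicates per factor. The 3 VCaP conditions were therefore used as the spread of that cell line, and every p-value measures the spread between these samples only. Both lines are single established cultures, so a difference between them is a difference between VCaP and Jurkat and not between PC and leukaemia.

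ETS factors share a DNA-binding domain that recognises a GGAA core. GABPα, which binds DNA together with a GABPβ partner, is known for occupying promoters of broadly expressed genes, many of them encoding proteins of mitochondria and translation. ERG is a factor of blood and vessel development that VCaP cells overexpress from a TMPRSS2-ERG fusion. The long arm of chromosome 5 carries, among many others, the tumour suppressor APC, the chromatin remodeller CHD1, the protocadherin clusters and a group of T-cell cytokine genes. In VCaP cells this arm is known from work outside these files to be heavily rearranged, with many changes of copy number along it. Neither read depth nor copy number is in the files used here, and more DNA of a segment and more binding per copy cannot be told apart from peak counts. The name "rearranged in VCaP" is therefore background and was not checked by these data. No hg18 annotation was used, so peaks are given by position without gene names or sequences.

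MACS, the peak caller behind the larger set, scores each peak by −10 times the log10 of its p-value, and the lowest score listed was 50. Peaks with a score from 50 to under 100 are called weak below. High confidence peaks are those that a second caller, SWEMBL, also found. Read numbers are not given, so the depth is unknown, and the number of peaks ranged from 6963 to 23947 per sample. For this reason arms are compared by their share of a sample's own peaks. The VCaP ERG sample at t0 stood apart from the others, with 2 high confidence peaks in the whole genome and 0 on 5q, and with 97.1% of its 5q MACS peaks weak. Results that changed without it are given with both values.

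The first question was whether 5q as a whole held more or fewer peaks in VCaP than in Jurkat cells. It held nearly the same share in both. In VCaP ERG ChIP, 5q had 315 of 6963 MACS peaks at t0 (4.52%, 95% Wilson interval 4.06 to 5.04), 1105 of 19504 with vehicle (5.67%, 5.35 to 5.999) and 1320 of 23947 with R1881 (5.51%, 5.23 to 5.81). In VCaP GABPα ChIP it had 421 of 9531 at t0 (4.42%, 4.02 to 4.85), 567 of 14183 with vehicle (3.998%, 3.69 to 4.33) and 616 of 15013 with R1881 (4.10%, 3.80 to 4.43). In Jurkat cells the shares were 4.75% (346 of 7288) and 4.46% (679 of 15229) for ERG. For GABPα they were 4.61% (991 of 21503) and 4.39% (971 of 22108). These intervals cover counting error over peaks only. Within ERG, 1 Jurkat value lay inside the VCaP range and the other just below it, and within GABPα the VCaP and Jurkat ranges overlapped only at their edge. Averaged over the factors, the VCaP share was 1.02-fold that of Jurkat (log2 0.03, two-sided exact permutation p = 0.65, cell line labels permuted within factor). Its direction differed by factor, with a log2 difference of 0.18 in ERG and −0.11 in GABPα, and the exact permutation test of that contrast gave p = 0.15. The mean difference also turned negative for peaks with a score of at least 100 (log2 −0.05, exact p = 0.58). This stood against a genome in which shares differed often. Of 24 units (chromosomes 1 to 22 and X, with chromosome 5 split by arm), 14 (58.3%) had an unadjusted exact permutation p under 0.05, 6 (25%) higher and 8 (33.3%) lower in VCaP, and 5q ranked 10 from the top by fold and was not among them.

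The share of 5p, in contrast, was higher in VCaP, with 1.69%, 1.65% and 1.57% of ERG peaks and 1.32%, 1.12% and 1.21% of GABPα peaks at t0, vehicle and R1881. In Jurkat it was 1.03% and 1.15% for ERG and 1.03% in both GABPα replicates. The mean ratio was 1.34-fold (exact permutation p = 0.01, the smallest the design allows, adjusted p over the 24 units 0.0185). Expressed as peaks per Mb of 5q over peaks per Mb of 5p, VCaP ERG gave 0.94, 1.21 and 1.23 at t0, vehicle and R1881, and VCaP GABPα gave 1.17, 1.25 and 1.19. Jurkat ERG gave 1.62 and 1.36, and Jurkat GABPα 1.57 and 1.502. All 6 VCaP samples were below all 4 Jurkat samples. The ratio was 0.767-fold in VCaP (log2 −0.38, exact permutation p = 0.01, adjusted p = 0.06 over 6 tests of the arm). It had the same direction in both factors, but missed 0.05 without Jurkat ERG replicate 1 (log2 −0.32, exact permutation p = 0.075). Without the t0 samples it was log2 −0.31 (exact permutation p = 0.0556, the smallest that design allows), so that 0.05 could not be reached.

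**Figure D1:**
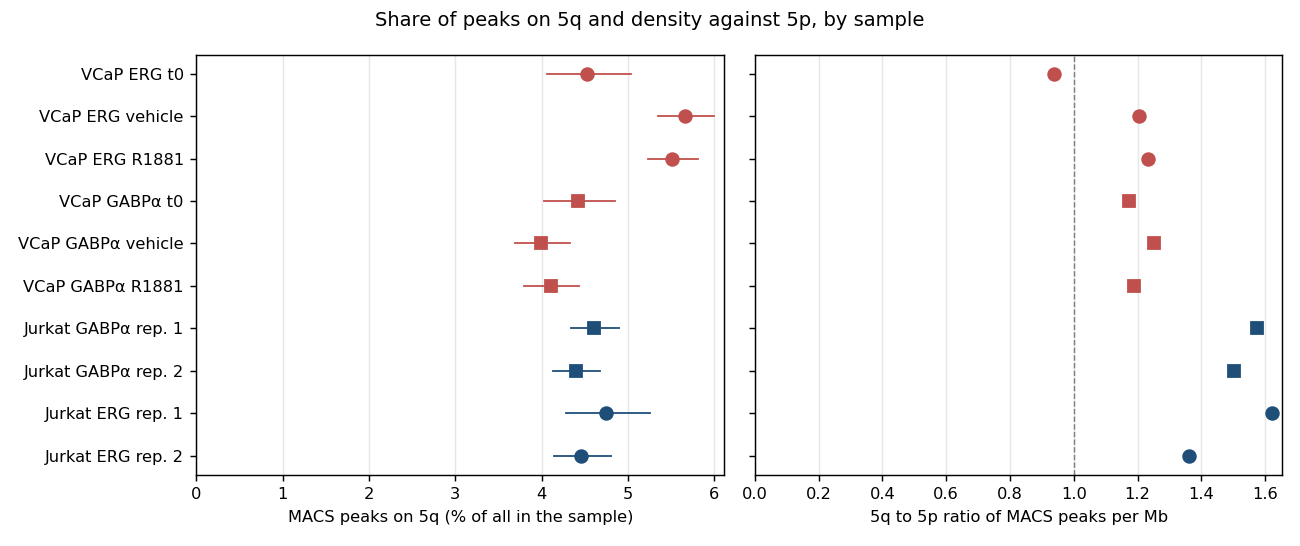
MACS peaks on 5q as a percentage of all peaks of the sample, with 95% Wilson intervals (left), and the ratio of 5q to 5p peaks per Mb (right), with 1 row per ChIP sample, circles for ERG, squares for GABPα, red for VCaP and blue for Jurkat. The VCaP shares (3.998% to 5.67%) span the Jurkat shares (4.39% to 4.75%), whereas every VCaP ratio (0.94 to 1.25) lies below every Jurkat ratio (1.36 to 1.62).

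High confidence peaks gave a similar picture with fewer regions. On 5q there were 48 of 743 for VCaP ERG with vehicle (6.46%, 95% Wilson interval 4.91 to 8.46) and 117 of 2229 with R1881 (5.25%, 4.40 to 6.25). Jurkat ERG had 52 of 1103 (4.71%, 3.61 to 6.13) and 65 of 1801 (3.61%, 2.84 to 4.57), both below the VCaP values. For GABPα the shares were 3.58%, 3.30% and 3.42% in VCaP at t0, vehicle and R1881 and 3.33% and 3.54% in Jurkat, where the lines overlapped. Over the 9 samples with at least 20 such peaks, the VCaP share was 1.19-fold that of Jurkat (exact permutation p = 0.183), so that the difference did not exceed the spread between samples. The 2 high confidence peaks of VCaP ERG at t0 allow no share to be given.

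Between the factors, the difference in 5q share lay at the threshold. The mean ERG share was 1.13-fold that of GABPα, with a log2 difference of 0.32 in VCaP and 0.03 in Jurkat (exact permutation p = 0.05 with factor labels permuted within cell line, adjusted p = 0.15). In VCaP all 3 ERG samples exceeded all 3 GABPα samples, and in Jurkat the ranges overlapped. The difference was larger among stronger peaks, log2 0.33 for a score of at least 100 (exact permutation p = 0.0167), and was 0.35 when each sample was reduced to its 6963 highest-scoring peaks (exact permutation p = 0.0167). With each sample left out in turn it ran from 0.15 to 0.23, with exact permutation p from 0.0333 (without VCaP ERG t0, and without Jurkat ERG replicate 2) to 0.133 (without VCaP GABPα vehicle, and without VCaP GABPα R1881). Without the t0 samples it was 0.25 and the exact permutation p was 0.111, in a design that allows no p under 0.05.

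Peaks on 5q were weaker than elsewhere for GABPα and about equal for ERG. In VCaP GABPα ChIP, 69.1%, 50.6% and 52.4% of 5q peaks were weak at t0, vehicle and R1881, against 62.3%, 40.0% and 42.3% of peaks off chromosome 5. In Jurkat GABPα ChIP, 51.0% and 54.0% were weak on 5q against 44.4% and 48.2%. The excess was thus 6.81, 10.6 and 10.2 percentage points in VCaP and 6.60 and 5.78 in Jurkat. For ERG it was 0.28, 2.31 and 1.81 points in VCaP and 0.19 and 1.13 points in Jurkat. All 10 samples had an excess, and the mean difference between the cell lines was 1.91 points (exact permutation p = 0.09). Median scores on 5q followed the same order, being 68.7, 98.7 and 93.4 in VCaP GABPα and 97.6 and 92.2 in Jurkat GABPα, against 72.4, 142, 130, 115 and 105 off chromosome 5. ERG medians on 5q ran from 58.1 to 75.4 in VCaP and were 62.3 and 67.7 in Jurkat. The ratio of median scores on and off the arm did not separate the lines (log2 −0.06, exact permutation p = 0.51). The 5p arm resembled 5q, with 52.2% weak GABPα peaks in VCaP with vehicle and 49.8% in Jurkat replicate 1. For none of the 5 arm-level cell line comparisons did the size depend on the factor past the threshold (lowest exact permutation p = 0.15, adjusted p = 0.667).

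Although the total was shared, the peaks lay in different places along the arm. The arm was divided into 131 bins of 1 Mb, and limma was fitted to log2(peaks per 1000 peaks of the sample + 0.1) over all 2687 bins of the genome with a mean of at least 1 peak, 127 of them on 5q. At an adjusted p under 0.05 (limma, Benjamini-Hochberg over all bins), 48 of the 127 5q bins (37.8%) differed between VCaP and Jurkat, 24 higher and 24 lower in VCaP. Over the whole genome 31.4% of bins were called, 15.9% higher and 15.6% lower, so the arm was near the background in number and in balance. The median difference over 5q bins was log2 −0.04, with a range from −2.71 to 2.82, and the median over all bins was −0.02. On 5p, 13 of 43 bins were called, 12 higher and 1 lower.

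**Figure D2:**
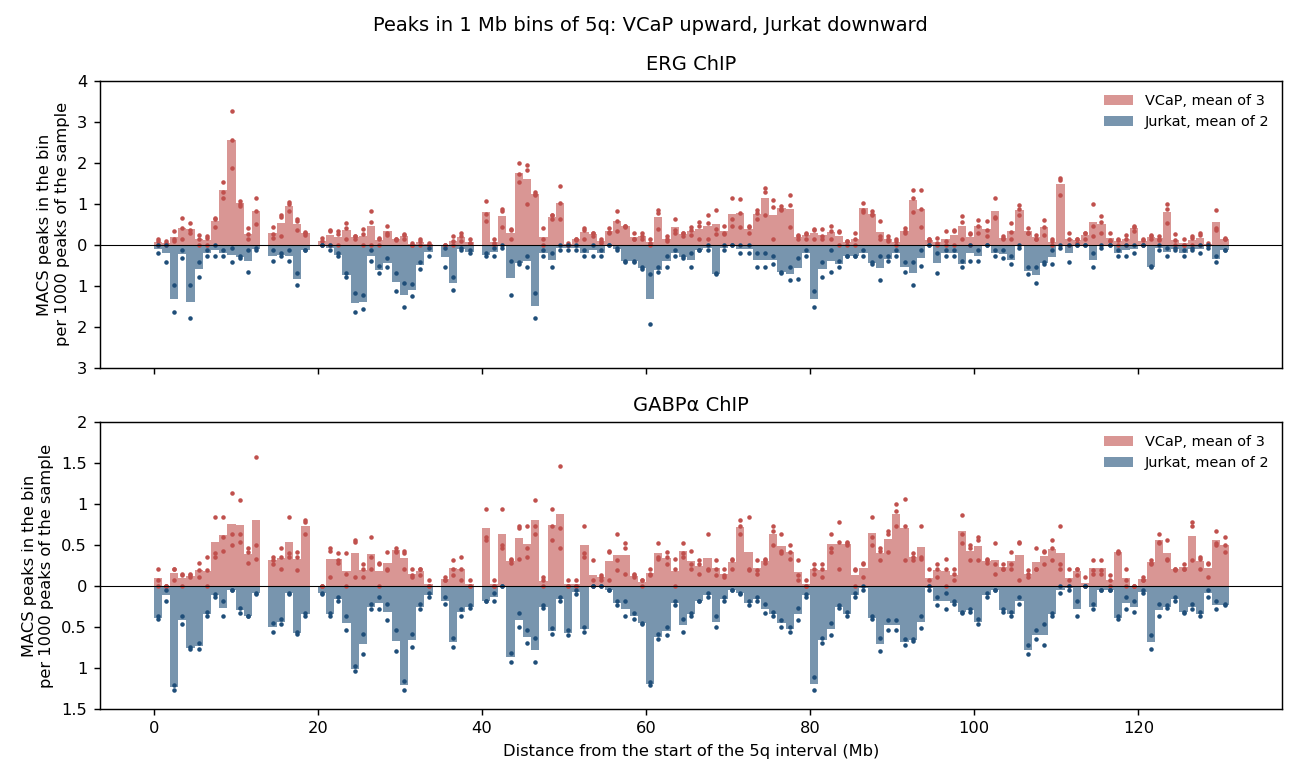
MACS peaks per 1000 peaks of the sample in each 1 Mb bin of 5q against the distance from the start of the interval, for ERG (top) and GABPα (bottom), with bars for the mean of 3 VCaP samples drawn upward, bars for the mean of 2 Jurkat replicates drawn downward and points for single samples. Tall VCaP bars and tall Jurkat bars mostly fall in different bins. Over 131 bins, counts of ERG and GABPα samples had Pearson's r of 0.74 to 0.81 in Jurkat and 0.27 to 0.61 in VCaP.

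The 5 bins most raised in VCaP were almost empty in Jurkat. The bin from 59 to 60 Mb held 13, 50 and 78 ERG peaks at t0, vehicle and R1881 and 6, 7 and 17 GABPα peaks in VCaP. Jurkat had 3 and 1 ERG peaks there and 1 GABPα peak in each replicate. Per 1000 peaks the lowest VCaP sample (0.49) was above the highest Jurkat sample (0.41), and the fitted difference was 7.05-fold (log2 2.82, SE 0.33, limma adjusted p = 4.58e-06). This was also the densest 5q bin in VCaP ERG with vehicle and with R1881.

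The bin from 92 to 93 Mb held 3, 17 and 20 ERG and 9, 7 and 7 GABPα peaks in VCaP, against 0 and 1 for ERG and 0 in both GABPα replicates in Jurkat (log2 2.71, SE 0.35). The bin from 160 to 161 Mb held 11, 32 and 29 ERG but 7, 3 and 4 GABPα peaks, against 0, 1, 0 and 2 in Jurkat (log2 2.67, SE 0.41). With GABPα samples alone this bin missed the threshold (log2 1.73, limma adjusted p = 0.0621). The bins from 99 to 100 Mb (log2 2.31, SE 0.37) and from 120 to 121 Mb (log2 2.19, SE 0.39) followed. The former held 7 to 20 peaks in every VCaP sample and at most 4 in any Jurkat sample.

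The 5 bins most reduced in VCaP were dense in Jurkat with both factors. The bin from 110 to 111 Mb held 26 GABPα peaks in each Jurkat replicate and 14 and 11 ERG peaks, whereas VCaP samples had 0 to 2 (log2 −2.71, SE 0.35). From 81 to 82 Mb, Jurkat had 16 and 13 GABPα and 7 and 19 ERG peaks and VCaP 0 to 3 (log2 −2.51, SE 0.38). From 52 to 53 Mb, Jurkat had 26 and 28 GABPα and 12 and 15 ERG peaks and VCaP 1 to 8 (log2 −2.36, SE 0.32). The bins from 75 to 76 Mb (log2 −2.02, SE 0.40) and from 130 to 131 Mb (log2 −1.996, SE 0.29) showed the same pattern, with at most 9 peaks in VCaP and at least 9 in Jurkat. In all 10 of these bins the rates of VCaP and Jurkat samples did not overlap, as in 35 of the 48 called 5q bins. The 10 were chosen for the size of this difference, and overlap was not counted in the rest of the genome. The limma adjusted p of each of the 10 was at most 0.000747.

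**Figure D3:**
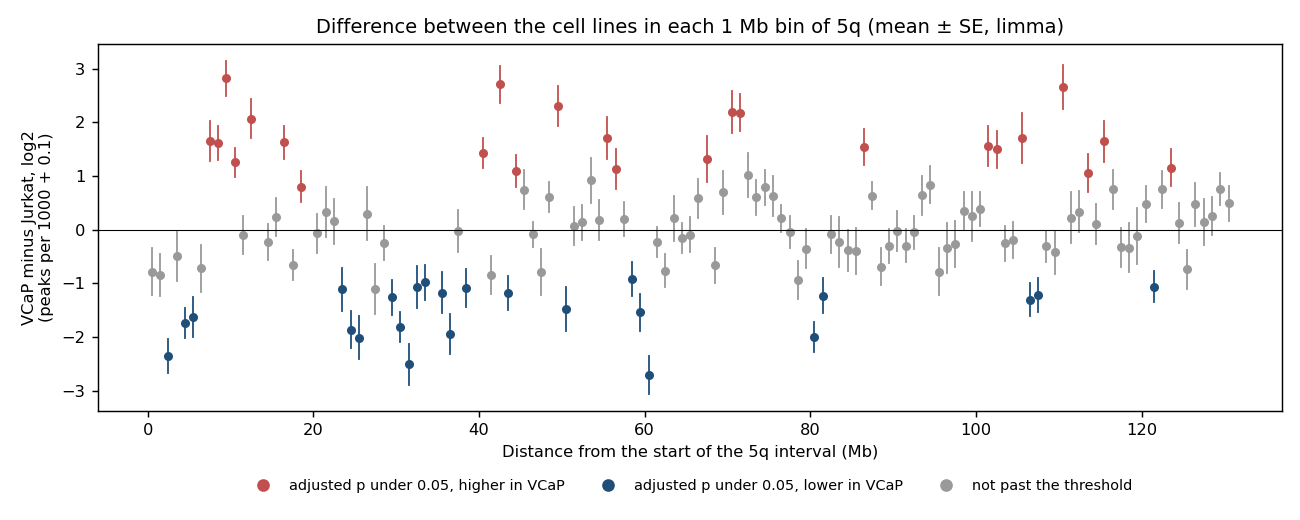
Fitted difference between VCaP and Jurkat (log2 of peaks per 1000 + 0.1, with SE) in each of the 127 tested 1 Mb bins of 5q against the distance from the start of the interval, red for higher and blue for lower in VCaP at a limma adjusted p under 0.05. Called bins of both directions, 24 of each, alternate along the arm from −2.71 to 2.82.

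Called bins were scattered rather than gathered in 1 block. They formed 30 runs of adjacent bins with the same direction, 19 of which were a single bin. Runs, and neighbouring bins called in opposite directions, were counted on 5q only and are not read as a trait of this arm. Only 4 runs reached 3 bins. From 57 to 61 Mb, 4 adjacent bins were higher in VCaP (log2 1.25 to 2.82). This stretch held 9.84%, 10.3% and 11.1% of the 5q ERG peaks and 7.60%, 4.76% and 6.49% of the 5q GABPα peaks in VCaP, against 1.41% to 2.06% in the 4 Jurkat samples. The 3 other runs were lower in VCaP. The run from 79 to 84 Mb held 6.18% to 8.84% of the 5q peaks in Jurkat samples and 0.63% to 3.17% in VCaP samples. The run from 73 to 76 Mb held 4.74% to 7.95% in Jurkat and 0.48% to 2.92% in VCaP. The run from 108 to 111 Mb held 3.83% to 6.07% in Jurkat and 0.54% to 1.27% in VCaP. In 4 places neighbouring bins were called in opposite directions, the sharpest being 92 to 93 Mb (log2 2.71) beside 93 to 94 Mb (log2 −1.18), which in turn lay beside 94 to 95 Mb (log2 1.09). The others were 99 to 100 Mb (2.31) beside 100 to 101 Mb (−1.47) and 155 to 156 Mb (1.71) beside 156 to 157 Mb (−1.31).

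Peaks were also gathered unevenly within samples. The variance of the 5q bin counts was 9.003 and 10.5 times their mean in VCaP ERG with vehicle and R1881, and 3.35 at t0. In VCaP GABPα it was 2.66, 2.20 and 2.50 times the mean at t0, vehicle and R1881. Jurkat samples lay between 3.37 and 4.92. On 5q the ratio was thus highest in VCaP ERG with vehicle and R1881, whereas that at t0 was below all 4 Jurkat samples. For clustered peaks this ratio also grows with their number. The mean per bin was 2.40 in VCaP ERG at t0, 8.44 with vehicle and 10.1 with R1881, and 2.64 to 7.56 in Jurkat samples. Samples are therefore not ranked by unevenness here. On 5p the same ratio was 1.64, 3.47 and 4.43 for VCaP ERG, 2.14 and 6.58 for Jurkat ERG and 5.19 and 5.41 for Jurkat GABPα.

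Most of the called bins were also called from weak peaks by themselves. With weak peaks alone, 41 of 120 5q bins were called between VCaP and Jurkat (24 higher, 17 lower), against 26.8% in the genome (14.2% higher, 12.5% lower), and 36 of them were among the 48 with the same direction. With peaks of a score of at least 100, 8 of 99 bins were called (1 higher, 7 lower), against 6.86% in the genome, 0.834% higher and 6.02% lower. Among the 10 bins named above, 5 then missed the threshold (59 to 60, 92 to 93, 160 to 161, 75 to 76 and 130 to 131 Mb, limma adjusted p from 0.0541 to 0.0896), with log2 differences of 2.10, 1.83, 1.95, −1.79 and −2.005, while 110 to 111, 81 to 82 and 52 to 53 Mb remained below 0.05. The bins from 99 to 100 and from 120 to 121 Mb had too few stronger peaks to be tested.

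On 5q, weak peaks fell into similar bins with either factor within a cell line, and into unrelated bins between the lines. Over the 131 bins, the weak-peak counts of VCaP ERG and VCaP GABPα samples correlated with Pearson's r of 0.51 to 0.71 (9 sample pairs, median 0.58), close to the 0.52 to 0.88 of pairs with the same factor. In Jurkat, ERG and GABPα samples correlated with r of 0.62 to 0.72 (4 pairs). Between VCaP and Jurkat samples r ran from −0.11 to 0.09 (24 pairs, median 0.00), also where the factor was the same. These values describe bins of shared samples that also share gaps and base composition along the arm, and carry no p. Some samples were called against a shared input, namely vehicle with R1881 for each factor in VCaP and both replicates of each factor in Jurkat. VCaP pairs of the same factor with different inputs still gave 0.54 to 0.81. On 5p (46 bins) the weak-peak correlation between cell lines was 0.16 to 0.48, and off chromosome 5 (2852 bins) it was 0.01 to 0.23.

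**Figure D4:**
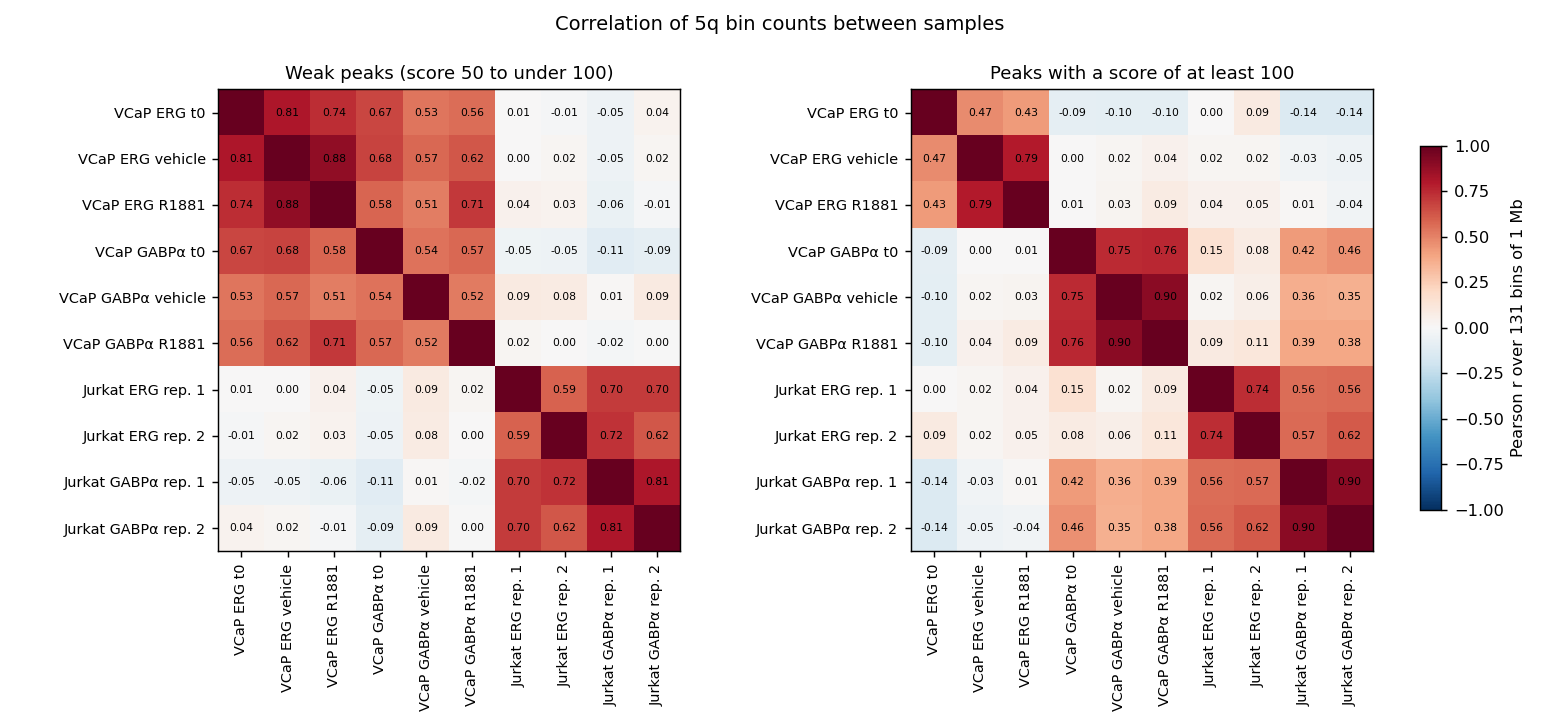
Pearson's r over the 131 bins of 5q between every pair of ChIP samples, for counts of weak peaks (left) and of peaks with a score of at least 100 (right). Weak peaks form a VCaP block and a Jurkat block with r near 0.00 between them, whereas stronger peaks separate ERG from GABPα within VCaP.

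For stronger peaks the pattern depended on the factor. For peaks with a score of at least 100, VCaP ERG and VCaP GABPα counts had r of −0.10 to 0.09, and GABPα of the different lines had 0.35 to 0.46. ERG of the different lines had 0.00 to 0.09, near 0 as for weak peaks. VCaP ERG at t0 had only 9 such peaks on 5q, so values of pairs with it rest on nearly empty bins. Ranges without it are not given here. In Jurkat the factors still correlated, with r of 0.56 to 0.62. The share of weak peaks whose position met the other factor varied between samples. Of 869 weak VCaP ERG peaks on 5q with R1881, 53 (6.10%) overlapped a GABPα peak of the same treatment by at least 1 base, and 16 (1.84%) overlapped a Jurkat ERG peak. Of 451 stronger ones, 127 (28.2%) overlapped a GABPα peak and 10 (2.22%) a Jurkat ERG peak. Of the weak VCaP GABPα peaks with R1881, which are fewer, 108 of 323 (33.4%) overlapped an ERG peak, as did 72 of 293 stronger ones (24.6%). In Jurkat ERG replicate 1, 64 of 261 weak peaks (24.5%) and 55 of 85 stronger peaks (64.7%) overlapped a GABPα peak. In Jurkat ERG replicate 2, 104 of 498 weak peaks (20.9%) and 98 of 181 stronger peaks (54.1%) overlapped a GABPα peak. Off chromosome 5 the shares for VCaP ERG with R1881 were 8.15% of weak and 31.4% of stronger peaks with GABPα, and for VCaP GABPα with R1881 they were 31.9% and 20.9% with ERG.

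GABPα sites found in both lines allowed scores to be set side by side at the same position. In all, 88 regions on 5q had a MACS peak in all 5 GABPα samples, of 2385 in the genome. In the 71 with a score of at least 100 throughout, the mean VCaP score of vehicle and R1881 was compared with the mean Jurkat score. It was higher by a median log2 of 1.78, and off chromosome 5 the median was 1.76 over 1732 regions. The VCaP sample at t0 entered the choice of regions but not these means. It had fewer MACS peaks (9531) than the other GABPα samples. Requiring a score of at least 100 in it can favour sites that score high in VCaP. The median of 1.78 is therefore read only beside that off chromosome 5, where regions were chosen in the same way. Within 5q the median was 1.11 over 5 sites in bins whose weak peaks were higher in VCaP and 1.93 over 12 sites in bins whose weak peaks were lower. It was 1.97 over 53 sites in bins not called from weak peaks, so only the 5 sites stood apart. Over 70 sites in 48 bins, the site difference and the weak-peak difference of the bin had r of −0.20 and Spearman's rho of −0.09, as a description with no test, since sites in a bin and all bins come from the same samples. Scores depend on library depth, which is unknown, and the parts of depth and of local copy number in these values were not tested.

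Bins that separated the factors were fewer and partly elsewhere. ERG differed from GABPα in 16 of 127 5q bins (limma adjusted p under 0.05), 8 higher and 8 lower, where the genome had 14.2% called, 2.57% higher and 11.6% lower. The bin from 140 to 141 Mb was the lowest for ERG, with 7, 13 and 15 GABPα peaks in VCaP at t0, vehicle and R1881 and 9 and 12 in Jurkat, against 0, 3 and 2 ERG peaks in VCaP and 2 in each Jurkat replicate (log2 −1.92, SE 0.37, limma adjusted p = 0.00126). The difference between the cell lines there was small (log2 −0.03, limma adjusted p = 0.959). The other bins lower in ERG were 176 to 177, 172 to 173, 134 to 135, 167 to 168, 178 to 179, 68 to 69 and 139 to 140 Mb (log2 −1.37 to −1.02). Of these, only 68 to 69 Mb also differed between the lines past the threshold (log2 0.80, limma adjusted p = 0.0334). The bin from 136 to 137 Mb was the highest for ERG, with 6, 20 and 19 ERG against 1, 4 and 4 GABPα peaks in VCaP, but 2 in each ERG replicate against 0 and 1 GABPα peaks in Jurkat (log2 1.53, SE 0.33, limma adjusted p = 0.00331). The bin from 59 to 60 Mb came next (log2 1.41, SE 0.33). Among bins higher in ERG, those from 136 to 137, 59 to 60, 152 to 153, 94 to 95 and 54 to 55 Mb also differed between the lines past the threshold. Those from 123 to 124, 124 to 125 and 96 to 97 Mb did not. With weak peaks alone limma called 0 bins on 5q between the factors, with 10 at an unadjusted p under 0.05. The count fell to 5 without VCaP GABPα R1881, to 6 without VCaP GABPα vehicle, to 8 without VCaP ERG vehicle and to 10 without VCaP ERG R1881. A dependence of the cell line difference on the factor was called by limma in 0 of the 127 bins (22 at an unadjusted p under 0.05, lowest adjusted p = 0.0912). In the genome it was called in 0.112% of bins, 0.0372% higher and 0.0744% lower. Without the t0 samples it was called in 3 5q bins. Counts with samples left out are given without a genome share and are not read as a trait of the arm.

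At the level of single sites, GABPα kept many 5q positions between the lines and ERG kept almost none. Of 205 VCaP GABPα high confidence peaks with R1881 on 5q, 118 (57.6%, 95% Wilson interval 50.7 to 64.1) overlapped a Jurkat GABPα high confidence peak, as did 55.2% off chromosome 5. Read from the other side, 123 of 371 Jurkat regions (33.2%) overlapped a VCaP peak. Jurkat regions here merge the peaks of both replicates of a factor, whereas each VCaP set is a single sample. Shares of VCaP and of Jurkat therefore rest on unlike sets and are not ranked against each other. Of 117 VCaP ERG high confidence peaks with R1881, 0 overlapped any of the 79 Jurkat ERG regions (interval up to 3.18%), and off chromosome 5 the share was 3.30%. ERG and GABPα high confidence peaks met at 9 of 117 VCaP ERG peaks (7.69%, 4.10 to 13.97) and at 17 of 79 Jurkat ERG regions (21.5%, 13.9 to 31.8), against 9.19% and 26.8% off chromosome 5.

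The highest 5q ERG peaks in VCaP with R1881 were absent from Jurkat. The peak at 90374501 to 90374845 on chromosome 5 scored 1261 with R1881 and 450 with vehicle, had no MACS peak at t0, and overlapped weaker GABPα peaks with vehicle (121) and R1881 (129). The peak at 133663277 to 133663592 scored 1213 with R1881 and 328 with vehicle, with GABPα scores of 136 and 67.1. The peak at 59779035 to 59779427, inside the bin most raised in VCaP, scored 1192 with R1881 and 937 with vehicle and 173 and 153 for GABPα. None of the 3 overlapped a peak in any of the 4 Jurkat samples.

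The highest VCaP GABPα peaks on 5q were called in all 5 GABPα samples and in no ERG sample. The peak at 157090761 to 157091417 scored 1680, 2904 and 3195 in VCaP at t0, vehicle and R1881 and 910 and 887 in Jurkat. The peak at 131553802 to 131554185 scored 1405, 2988 and 3148 in VCaP and 3100 in both Jurkat replicates, and lay in the region that also ranked among the highest in Jurkat. The peak at 139760878 to 139761069 scored 1050, 3100 and 3113 in VCaP and 678 and 460 in Jurkat. Equal scores of 3100 recur among the strongest peaks, so their order is not read here.

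Jurkat had strong GABPα sites on 5q with no VCaP peak at all. The peak at 75805279 to 75805745 scored 3100 in both GABPα replicates and 74.2 in ERG replicate 2, and had no peak in 6 of 6 VCaP samples. The peak at 100252693 to 100253127 scored 2675 and 2692 and was likewise absent from VCaP. Both lay in bins that were lower in VCaP, 75 to 76 Mb and 100 to 101 Mb. Among Jurkat ERG peaks, that at 131003756 to 131004257 scored 957 and 1074, overlapped GABPα peaks of 394 and 239, and had no VCaP peak. That at 134352903 to 134353445 scored 773 and 951 and appeared in no sample other than the ERG replicates. That at 128740938 to 128741669 scored 748 and 1401 and overlapped a single weak VCaP ERG peak, of 60.2 with vehicle.

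Sites shared by all GABPα samples included 159368245 to 159369570, with scores of 1734, 2812 and 3015 in VCaP and 2228 and 2558 in Jurkat. Another was 74097704 to 74100223, with 2560, 3100 and 3100 in VCaP against 1078 and 1117 in Jurkat. This site scored higher in VCaP, and its bin held fewer VCaP peaks (log2 −1.86). Shared GABPα sites with a score of at least 100 throughout had a median log2 of 1.78 on 5q and 1.76 off chromosome 5. This choice of sites can itself favour high VCaP scores. The higher score of this site is therefore not read as an exception. Only 2 regions on 5q, of 233 in the genome, had an ERG peak in all 4 ERG samples other than VCaP t0. At 79512176 to 79514132 ERG scored 248 and 216 in VCaP with vehicle and R1881 and 384 and 259 in Jurkat, with no GABPα peak. At 52056650 to 52058191 it scored 78.2 and 175 in VCaP and 260 and 234 in Jurkat, where GABPα scored 1562 and 1710.

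Of the 9 VCaP ERG high confidence peaks with R1881 that met a GABPα peak, the region at 142234441 to 142234630 ranked first by the lower of its scores. Its ERG peak scored 491 with R1881 and 193 with vehicle, and its GABPα peak 491, 439 and 326 with R1881, vehicle and t0. The region at 65692789 to 65692920 scored 438 for ERG and 407 for GABPα with R1881, and that at 142113170 to 142113447 scored 608 and 364. None of the 3 had a peak in Jurkat. In Jurkat the corresponding regions were adjacent pieces of a single MACS peak, 127300170 to 127300387 and 127300416 to 127300609, with scores of 273 and 801 for ERG and 1351 and 1477 for GABPα, and 109417857 to 109418137, with 273 and 435 for ERG and 734 and 719 for GABPα. None of these had a VCaP peak.

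With R1881 in place of vehicle, ERG peaks on 5q were more numerous and higher in score, and GABPα peaks were at similar levels. There is 1 sample per condition, so these are values of single samples with no test. ERG peaks on 5q numbered 1105 with vehicle and 1320 with R1881 (1.19-fold, off chromosome 5 1.23-fold), and those with a score of at least 200 numbered 88 and 188 (2.14-fold, off chromosome 5 2.31-fold). MACS peaks that held a high confidence interval numbered 48 with vehicle and 111 with R1881 (2.31-fold, off chromosome 5 2.80-fold). At the 5q positions present in both, the median log2 ratio of ERG scores was 0.22, against 0.21 off chromosome 5. GABPα had 567 peaks with vehicle and 616 with R1881 (1.09-fold), 196 and 199 of them with a score of at least 200, and a median log2 score ratio of 0.00. Of the R1881 high confidence peaks on 5q, 82 of 117 (70.1%) had an ERG peak with vehicle and 199 of 205 (97.1%) a GABPα peak with vehicle, against 69.3% and 98.8% off chromosome 5. Depth is unknown for these libraries, and its part in the ERG difference was not tested.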

How the data were processed

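Peak files of GABPα and ERG ChIP-seq in VCaP and Jurkat cells were analysed, and 6 input samples without peak files among those used here entered only through the authors' calls. The authors aligned reads to hg18 with BWA 0.5.5, discarded duplicates and reads aligned with low quality, then ran MACS and SWEMBL on each sample against input. The deposited MACS score is −10 times log10 of the p-value. The deposited high confidence files carry the score of the parent MACS peak in 7 samples and a whole number of unstated meaning in 3, which was not used. SWEMBL files were not used. The ERG antibody named in the labels is not the one in the methods, and this was not resolved.

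Everything else was computed with Python 3.11.15 (numpy 2.4.6, pandas 2.3.3, scipy 1.17.1, matplotlib 3.10.9) and limma 3.58.1 in R 4.3.3. Arm values were compared by two-sided exact permutation tests over samples, and bins by limma (trend) with cell line and factor as terms, on peaks per 1000 with a pseudocount of 0.1 and a minimum mean of 1 peak. Both procedures were run on simulated data, with independent samples and, for the bins, counting error only. These simulations held no shared inputs, treatments or extra spread between samples, so they do not give the error rate for the real samples. Overlap meant at least 1 base. Intervals are 95% Wilson. Named were the 5 most raised and 5 most reduced called bins, runs of at least 3 bins, and the 3 highest regions of each peak class. ERG minus GABPα bins were named by size after their values were seen. Alternatives were score minimum, equal peak numbers, bin size, pseudocount, filter, single factors, left-out samples and a replicate block. The members and comparisons were chosen with earlier results of these data known.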

Additional observations from a re-analysis of the deposited data

Results flagged for a closer look

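In 2 of the 127 tested 5q bins, VCaP and Jurkat rates did not overlap for either factor, with opposite directions for ERG and GABPα. The bins were picked by this pattern, which was not counted in the rest of the genome. Their number is therefore not read as high or low. From 134 to 135 Mb, ERG rates were lower and GABPα rates higher in VCaP than in Jurkat. ERG peaks numbered 0, 2 and 2 in VCaP and 2 and 4 in Jurkat, and GABPα peaks 5, 7 and 8 in VCaP and 8 and 7 in Jurkat, whose samples held more peaks in all. The difference between the factors was log2 −1.73 (SE 0.60), and did not pass the test (limma interaction, adjusted p = 0.177). From 169 to 170 Mb, ERG was higher and GABPα lower in VCaP. VCaP had 3, 9 and 8 ERG peaks and 0 GABPα peaks in all 3 samples, and Jurkat had 0 and 3 ERG and 4 and 7 GABPα peaks. The difference was log2 3.34 (SE 0.68), with a limma adjusted p of 0.0912, and its size depends on the pseudocount because a group was at 0. No explanation of either was tested.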

How the results depend on the processing

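The 5q share in VCaP against Jurkat (log2 0.03) turned to −0.052 for scores of at least 100 and to −0.11 in GABPα alone, and ran from 0.0041 to 0.085 when samples were left out in turn, never past the threshold. The 5q to 5p ratio kept its direction under all settings (−0.44 to −0.32 with samples left out in turn) and missed 0.05 without Jurkat ERG replicate 1 (−0.32, exact p = 0.075). Without t0 (−0.31) the exact p of 0.0556 was the smallest possible, so 0.05 could not be reached. The ERG minus GABPα share passed 0.05 for scores of at least 100 (0.33) and equal peak numbers (0.35), and was 0.15 to 0.23 with samples left out in turn. The 48 bins called between the lines (31.4% of bins in the genome) became 29 of 66 with 2 Mb bins and 13 of 27 with 5 Mb bins. They became 8 for scores of at least 100 (6.86% in the genome), 29 in GABPα alone and 41 to 50 with samples left out in turn. The cause was not tested, beyond there being fewer bins and samples in these settings. The 16 bins between the factors became 7 with 2 Mb bins, 3 with 5 Mb bins, 0 with weak peaks and 5 to 21 with samples left out in turn. Bins of 5q with a factor-dependent line difference numbered 3 without t0. Where no genome share stands beside a count of called 5q bins, the count is not read as a trait of the arm. The 10 named bins kept their direction in all 188 alternative values and missed 0.05 in 6, 5 of them for scores of at least 100.

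Samples of the same treatment or number were not paired by the labels. Over 2687 bins, deviations of VCaP pairs of the same treatment correlated with r of 0.18, 0.09 and 0.24. Pairs of different treatments had −0.23 to 0.10. In Jurkat, pairs of the same number had −0.03 and pairs of different number 0.03. With 2 replicates these are a single value up to sign, so pairing in Jurkat cannot be judged from it. With a replicate block the line difference was called in 49 5q bins, the factor difference in 14 and their interaction in 1, without genome shares beside them. The factor difference of the 5q share was then log2 0.18 (exact p = 0.0625, the smallest 5 pairs allow). Read depth is unknown, so a bin without peaks may lack reads or binding.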
